A study of Mus musculus with 12 samples.

Results

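The integrated stress response genes and Gdf15 were described across the liver libraries of a mouse study of diet and of thrombospondin 1 (TSP1) from macrophages. The 10 genes were Gdf15, Ddit3, Atf3, Atf4, Atf5, Trib3, Chac1, Asns, Ppp1r15a and Hspa5, taken by symbol from the deposited gene tables. All 10 were listed in all 12 libraries and passed the filter on low counts, among 16239 named genes and 12587 genes tested. The study held 4 groups of 3 liver libraries from mice of strain 129/B6, 10 months old, kept on an HF or an LF diet for 8 months. HF knockout mice lacked TSP1 in macrophages and ate the HF diet, and HF floxed mice carried the floxed TSP1 gene on the same diet. LF knockout and LF floxed mice were the same genotypes on the LF diet. The labels give the floxed groups as WT, and the Cre that removes the gene from macrophages is not given in the sources used here. Values are FPKM (fragments scaled to transcript length and to library size), so they are per length and can be set side by side between genes.

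The integrated stress response starts when a kinase of the eIF2alpha family, such as PERK at the endoplasmic reticulum (ER), phosphorylates the initiation factor eIF2. General translation then falls while the mRNAs of a few transcription factors, Atf4 and Atf5 among them, are translated better. ATF4 switches on amino acid synthesis, redox and feedback genes together with CHOP, the product of Ddit3. Liver makes much secreted protein and fat-laden liver is known for ER stress. GDF15 is a circulating hormone made by stressed cells, and it lowers food intake through a receptor in the hindbrain.

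Promoters of the genes were searched for 3 short motifs, and the 5 printed here are those with an ATF4-type or ER stress motif. RefSeq windows on GRCm38.p6 reach from 250 bases before to 50 bases after the start. The searches, on both strands, were for TGATGNAA, the composite C/EBP-ATF element bound by ATF4 with a partner, for TGACGTCA, the cAMP response element, and for the ER stress element, CCAAT and CCACG with 9 bases between. The composite element is in 3.97% of 32851 promoters of the same length, the cAMP element in 1.79% and the ER stress element in 0.119%. Capitals mark the composite element in the first 4 sequences and the ER stress element in the last.
Chac1, chr2:119350992-119351291, plus strand: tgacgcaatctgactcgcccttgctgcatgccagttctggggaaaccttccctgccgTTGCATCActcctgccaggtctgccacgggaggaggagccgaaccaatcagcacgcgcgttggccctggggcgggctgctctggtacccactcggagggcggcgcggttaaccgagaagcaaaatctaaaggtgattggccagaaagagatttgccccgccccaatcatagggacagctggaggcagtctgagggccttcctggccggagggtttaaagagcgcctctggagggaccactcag
Atf3, chr1:191183284-191183583, minus strand: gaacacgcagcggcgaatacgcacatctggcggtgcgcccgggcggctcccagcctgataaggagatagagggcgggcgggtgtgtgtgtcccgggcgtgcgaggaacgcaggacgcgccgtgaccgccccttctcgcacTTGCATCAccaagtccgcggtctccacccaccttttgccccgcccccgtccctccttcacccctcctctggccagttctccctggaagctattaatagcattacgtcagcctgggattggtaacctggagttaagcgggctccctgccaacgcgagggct
Asns, chr6:7693160-7693459, minus strand: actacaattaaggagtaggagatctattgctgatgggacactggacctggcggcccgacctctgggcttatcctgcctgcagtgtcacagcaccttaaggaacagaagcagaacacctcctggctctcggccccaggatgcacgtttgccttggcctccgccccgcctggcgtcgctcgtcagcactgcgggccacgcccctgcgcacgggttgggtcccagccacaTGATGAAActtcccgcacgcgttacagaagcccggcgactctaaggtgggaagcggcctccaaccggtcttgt
Trib3, chr2:152344011-152344310, minus strand: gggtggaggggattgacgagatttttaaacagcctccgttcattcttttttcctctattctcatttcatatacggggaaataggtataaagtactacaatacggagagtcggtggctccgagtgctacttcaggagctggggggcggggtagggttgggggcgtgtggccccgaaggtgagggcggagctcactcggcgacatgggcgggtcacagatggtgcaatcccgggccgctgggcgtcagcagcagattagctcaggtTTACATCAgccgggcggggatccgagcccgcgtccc
Hspa5, chr2:34771840-34772139, plus strand: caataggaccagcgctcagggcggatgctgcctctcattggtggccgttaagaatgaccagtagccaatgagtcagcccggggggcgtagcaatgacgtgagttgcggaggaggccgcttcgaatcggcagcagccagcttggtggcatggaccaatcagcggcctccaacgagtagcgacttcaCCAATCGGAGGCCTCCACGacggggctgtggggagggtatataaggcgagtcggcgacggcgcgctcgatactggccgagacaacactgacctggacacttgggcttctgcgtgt

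The composite element lay 193 to 186 bases before the start in Chac1, 110 to 103 before it in Atf3 and 23 to 16 before it in Asns. In Trib3 it lay at bases 14 to 21 after the start. The ER stress element of Hspa5 lay 65 to 47 bases before the start, and Ppp1r15a held the cAMP element 12 to 5 bases before it. No match was found in the windows of Gdf15, Ddit3, Atf4 and Atf5, which says only that these letters are not in those windows. The 4 genes with the composite element did not share a pattern over the libraries, as the values below show.

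Libraries held 16131506 to 16536016 estimated counts. HF knockout replicate 2 stood apart from the rest. LF knockout replicates 2 and 3 were close to each other, as were HF floxed replicates 1 and 2. Their counts still differed by more than sampling noise (chi-square per degree of freedom 2.85 and 8.87, against 50.7 or more in other pairs of the same group), and they were kept as separate libraries. Across groups, LF knockout replicate 1 was closer to LF floxed replicate 2 (30.09) than to LF knockout replicates 2 and 3 (101.8 and 99.31). HF floxed replicate 3 was closer to LF knockout replicate 2 (49.42) than to HF floxed replicates 1 and 2 (182.32 and 182.55). Nothing in the labels ties a replicate to an animal of its own, so the p-values speak of spread among libraries, part of which may be technical. Thbs1, the gene of TSP1, was at 0.16, 1.42 and 1.63 FPKM in HF knockout and at 0.75, 0.75 and 0.31 FPKM in HF floxed. It was at 0.08, 0.55 and 0.55 FPKM in LF knockout and at 0.11, 0.06 and 0.07 FPKM in LF floxed. It was thus not lower in the libraries labelled knockout, and since other cells of whole liver keep the gene, it does not check the labels.

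Gdf15 (gene 23886), the secreted hormone of the set, was low in the LF floxed livers and higher in the other 3 groups. It was at 8.37, 13.37 and 21.71 FPKM in HF knockout and at 37.92, 33.45 and 12.67 FPKM in HF floxed. It was at 29.63, 21.22 and 21.71 FPKM in LF knockout and at 5.50, 2.93 and 5.48 FPKM in LF floxed. The 3 LF floxed libraries lay below the other 9, while HF floxed, LF knockout and HF knockout overlapped as neighbours in the order of their means.

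**Figure D1:**
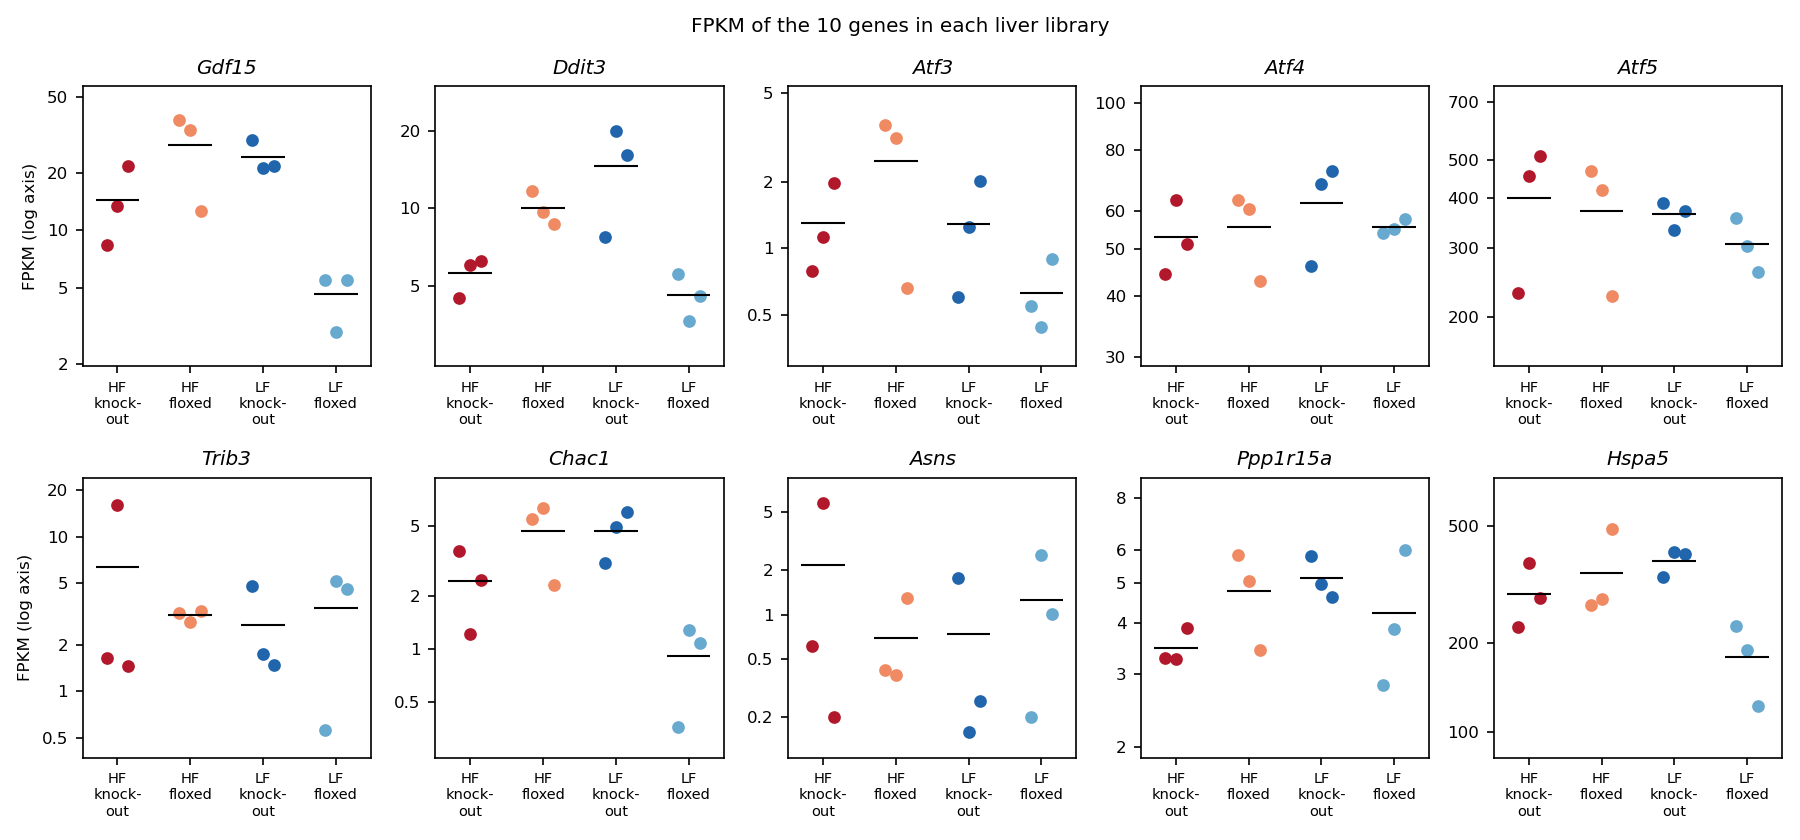
FPKM (log axis) of each of the 10 genes in each of the 12 liver libraries, by group, with points for libraries and a bar at the group mean. Gdf15, Ddit3, Atf3, Atf5, Chac1 and Hspa5 have their lowest group mean in LF floxed. Single libraries set the highest Asns and Trib3 values, 5.72 and 16.15 FPKM.

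In floxed livers Gdf15 averaged 28.0 ± 13.5 FPKM on HF and 4.64 ± 1.48 FPKM on LF (SD, n = 3 each). Fold changes and log2 differences here and in what follows were fitted by edgeR to TMM-scaled counts and so differ from ratios of FPKM means. The fitted 4.87-fold difference (log2 2.28, SE 0.39) missed the threshold, with an edgeR adjusted p of 0.135 over all genes. In knockout livers it averaged 14.5 ± 6.74 FPKM on HF and 24.2 ± 4.72 FPKM on LF (SD, n = 3 each), with a log2 difference of -0.76 (SE 0.37, edgeR adjusted p = 0.439). The diet difference thus had opposite signs in the 2 genotypes.

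On LF, Gdf15 was 4.6-fold higher in knockout than in floxed livers (log2 2.20, SE 0.39, edgeR adjusted p = 0.218), and all 3 knockout libraries lay above all 3 floxed ones. On HF the log2 difference of knockout against floxed was -0.84 (SE 0.37, edgeR adjusted p = 0.638), and the libraries overlapped. Two-sided exact permutation tests gave 0.1 for HF against LF in floxed and for knockout against floxed on LF, the smallest p that 3 against 3 allows. They gave 0.3 for HF against LF in knockout and for knockout against floxed on HF. The interaction, which is the log2 diet difference in knockout minus that in floxed, was -3.04 (SE 0.54, edgeR adjusted p = 0.241).

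These Gdf15 results depended on the tool. DESeq2 called HF against LF in floxed (log2 2.29, DESeq2 adjusted p = 1.32e-05), knockout against floxed on LF (2.22, DESeq2 adjusted p = 3.47e-05) and the interaction (-3.05, DESeq2 adjusted p = 0.000157). Without HF floxed replicate 3, the lowest Gdf15 library of its group, the floxed diet difference was 2.58 (SE 0.35) and passed in edgeR too (adjusted p = 0.0333). HF floxed was then the close pair of replicates 1 and 2 alone, and with both close pairs averaged the difference was 2.10 (edgeR adjusted p = 0.886).

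Atf4 (gene 11911), named above as translated better under stress, varied least of the 10 genes, from 43.06 to 72.37 FPKM over the 12 libraries. It was at 44.42, 63.10 and 51.16 FPKM in HF knockout, at 63.17, 60.58 and 43.06 FPKM in HF floxed, at 46.17, 68.31 and 72.37 FPKM in LF knockout and at 54.13, 55.12 and 57.79 FPKM in LF floxed. All 4 groups overlapped in FPKM. Its log2 differences ran from -0.25 for HF against LF in floxed to 0.03 for knockout against floxed on HF, and the edgeR adjusted p-values of the 4 comparisons of 2 groups ran from 0.569 to 0.994. ATF4 activity is known to be set largely by translation, which mRNA levels do not show.

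Atf5 (gene 107503), also named above, had the highest levels of the set, with a mean of 360.0 FPKM over the 12 libraries. It averaged 399.0 ± 148.0 FPKM in HF knockout, 371.0 ± 128.0 FPKM in HF floxed, 364.0 ± 29.7 FPKM in LF knockout and 307.0 ± 47.7 FPKM in LF floxed (SD, n = 3 each). HF knockout replicate 1 and HF floxed replicate 3 held 230.73 and 225.99 FPKM, the 2 lowest values, while the other libraries of those groups were at 418.57 FPKM or more. No difference between groups exceeded this spread, and the largest log2 difference was 0.21 (SE 0.28, edgeR adjusted p = 0.885) for knockout against floxed on HF.

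Ddit3 (gene 13198), which encodes the transcription factor CHOP, was the 1 gene of the 10 whose libraries did not overlap in any of the 4 comparisons of 2 groups. On TMM-scaled counts and in the direction of Ddit3, 11.5% of all genes were apart for diet in floxed and 6.75% in knockout livers. Between genotypes 5.35% were apart on HF and 6.53% on LF. The share of all genes apart in all 4 comparisons was not counted. Ddit3 was at 4.50, 6.04 and 6.26 FPKM in HF knockout and at 11.67, 9.70 and 8.70 FPKM in HF floxed. It was at 7.72, 19.87 and 16.07 FPKM in LF knockout and at 5.57, 3.66 and 4.55 FPKM in LF floxed. LF knockout and HF floxed were the 2 high groups and overlapped. HF knockout and LF floxed were the 2 low groups and overlapped as well.

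In floxed livers Ddit3 averaged 10.0 ± 1.51 FPKM on HF and 4.59 ± 0.956 FPKM on LF (SD, n = 3 each), a log2 difference of 0.84 (SE 0.30, edgeR adjusted p = 0.326). In knockout livers it averaged 5.6 ± 0.959 FPKM on HF and 14.6 ± 6.22 FPKM on LF (SD, n = 3 each), a log2 difference of -1.36 (SE 0.30, edgeR adjusted p = 0.344). In each genotype the libraries of the diets did not overlap, in opposite directions.

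Between genotypes the log2 difference of Ddit3 was -0.75 on HF (SE 0.30, edgeR adjusted p = 0.61) and 1.46 on LF (SE 0.30, edgeR adjusted p = 0.394), again with no overlap on either diet. The interaction was -2.21 (SE 0.42, edgeR adjusted p = 0.251). Without LF knockout replicate 1, the lowest library of its group, the genotype difference on LF was 1.76 (edgeR adjusted p = 0.022) and the interaction -2.49 (edgeR adjusted p = 0.0208). LF knockout was then the close pair of replicates 2 and 3 alone, and with both close pairs averaged these values were 1.29 (edgeR adjusted p = 1) and -2.03 (edgeR adjusted p = 0.996). DESeq2 called the diet difference in knockout (DESeq2 adjusted p = 0.0126), the genotype difference on LF (DESeq2 adjusted p = 0.00585) and the interaction (DESeq2 adjusted p = 0.00194).

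Atf3 (gene 11910), a stress-induced factor that is also an immediate early gene, was expressed at a low level, with 14 to 114 counts per library. It was at 0.79, 1.12 and 1.97 FPKM in HF knockout, at 3.60, 3.16 and 0.66 FPKM in HF floxed, at 0.60, 1.24 and 2.01 FPKM in LF knockout and at 0.55, 0.44 and 0.89 FPKM in LF floxed. Each neighbouring pair of groups in the order of means overlapped. HF floxed replicates 1 and 2, the pair of close libraries, held the 2 highest values, and the other HF floxed library lay within the LF floxed range. The log2 difference of HF against LF in floxed was 1.66 (SE 0.58, edgeR adjusted p = 0.317), and in knockout it was 0.02 (SE 0.56, edgeR adjusted p = 0.995).

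Chac1 (gene 69065), an ATF4 and CHOP target whose product degrades glutathione, shared its 2 highest groups with Gdf15, Ddit3, Ppp1r15a and Hspa5. It was at 3.61, 1.22 and 2.45 FPKM in HF knockout and at 5.46, 6.28 and 2.30 FPKM in HF floxed. It was at 3.08, 4.94 and 6.02 FPKM in LF knockout and at 0.36, 1.27 and 1.08 FPKM in LF floxed. HF floxed and LF knockout lay above LF floxed in all libraries, and HF knockout overlapped each of the other groups.

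In floxed livers Chac1 averaged 4.68 ± 2.10 FPKM on HF and 0.903 ± 0.48 FPKM on LF (SD, n = 3 each), a fitted 4.18-fold difference (log2 2.06, SE 0.55, edgeR adjusted p = 0.236). On LF it was 4.55-fold higher in knockout than in floxed livers (log2 2.19, SE 0.55, edgeR adjusted p = 0.78). The interaction was -2.91 (SE 0.75, edgeR adjusted p = 0.396). DESeq2 called these 3 differences, with DESeq2 adjusted p-values of 0.017, 0.0275 and 0.026.

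Asns (gene 27053), asparagine synthetase, and Trib3 (gene 228775), a pseudokinase that restrains ATF4 and CHOP, varied between libraries far more than between groups. Asns was at 0.61, 5.72 and 0.20 FPKM in HF knockout, at 0.42, 0.39 and 1.29 FPKM in HF floxed, at 1.79, 0.16 and 0.26 FPKM in LF knockout and at 0.20, 2.56 and 1.01 FPKM in LF floxed. Trib3 was at 1.64, 16.15 and 1.47 FPKM in HF knockout, at 3.23, 2.83 and 3.31 FPKM in HF floxed, at 4.83, 1.75 and 1.48 FPKM in LF knockout and at 0.56, 5.20 and 4.61 FPKM in LF floxed. For both genes HF knockout replicate 2 was highest, followed by LF floxed replicate 2 and then LF knockout replicate 1.

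**Figure D2:**
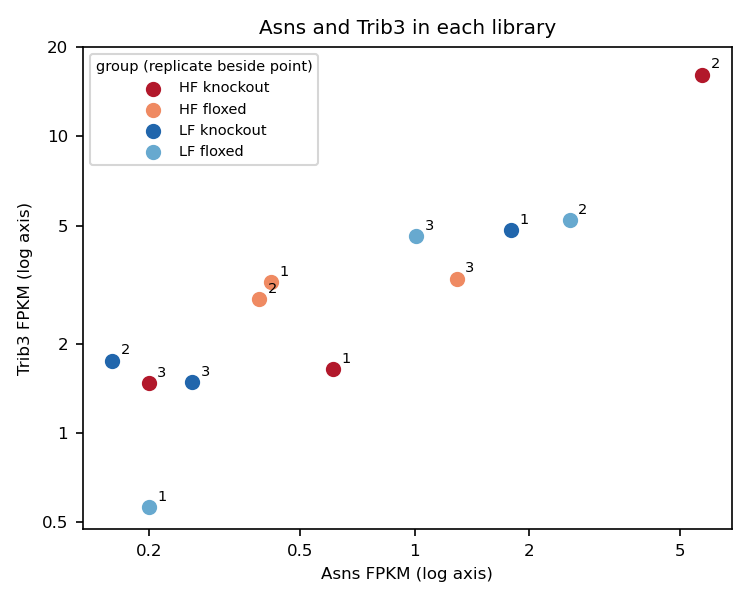
Trib3 FPKM against Asns FPKM (both log axes) in the 12 libraries, coloured by group, with the replicate number beside each point. HF knockout replicate 2 stands at 5.72 FPKM of Asns and 16.15 FPKM of Trib3, and libraries of 1 group are spread along the plot.

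The highest Asns value was 35.8 times the lowest and the highest Trib3 value 28.8 times the lowest, the widest ranges of the 10 genes. In HF knockout, Trib3 averaged 6.42 ± 8.43 FPKM and Asns 2.18 ± 3.08 FPKM (SD, n = 3), so each SD exceeded its mean. For HF against LF in knockout the log2 difference was 1.49 for Asns (SE 1.25, edgeR adjusted p = 0.658). For Trib3 it was 1.20 (SE 0.92, edgeR adjusted p = 0.621). Without HF knockout replicate 2 these values were -0.75 for Asns and -0.72 for Trib3, with the sign turned.

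The clock-controlled gene Dbp, a marker of time of day, was also uneven between libraries of 1 group. It was at 34.14, 3.97 and 2.64 FPKM in HF knockout, at 2.44, 2.39 and 4.97 FPKM in HF floxed, at 84.17, 4.24 and 5.03 FPKM in LF knockout and at 1.98, 90.82 and 57.85 FPKM in LF floxed. On LF the 3 libraries with the highest Dbp also held the 3 highest Asns and Trib3 values, whereas HF knockout replicate 2 was low in Dbp. HF knockout replicate 1, the highest in Dbp on HF, ranked 6 for Asns and 9 for Trib3 among the 12 libraries. The part of time of day in these values was not tested.

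Ppp1r15a (gene 17872) encodes GADD34, the phosphatase subunit that reverses eIF2 phosphorylation. It was at 3.28, 3.27 and 3.88 FPKM in HF knockout, at 5.82, 5.04 and 3.44 FPKM in HF floxed, at 5.81, 4.96 and 4.61 FPKM in LF knockout and at 2.83, 3.86 and 5.99 FPKM in LF floxed. HF knockout lay below LF knockout in all libraries and overlapped both floxed groups. The log2 difference of HF against LF in knockout was -0.53 (SE 0.26, edgeR adjusted p = 0.432).

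Hspa5 (gene 14828), the ER chaperone BiP and a target of ATF6 and XBP1, was abundant, with 5002 to 19978 counts per library. It was at 226.79, 373.49 and 284.61 FPKM in HF knockout and at 270.02, 282.32 and 487.60 FPKM in HF floxed. It was at 336.91, 407.26 and 401.83 FPKM in LF knockout and at 228.24, 189.92 and 122.85 FPKM in LF floxed. LF knockout lay above LF floxed in all libraries, with means of 382.0 ± 39.1 and 180.0 ± 53.3 FPKM (SD, n = 3 each). The fitted 1.86-fold difference (log2 0.90, SE 0.35) missed the threshold, with an edgeR adjusted p of 0.929. Unlike Gdf15, Hspa5 was highest in HF floxed replicate 3. Its log2 difference for HF against LF in floxed was 0.72 (SE 0.34, edgeR adjusted p = 0.425), and 0.25 without that library.

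**Figure D3:**
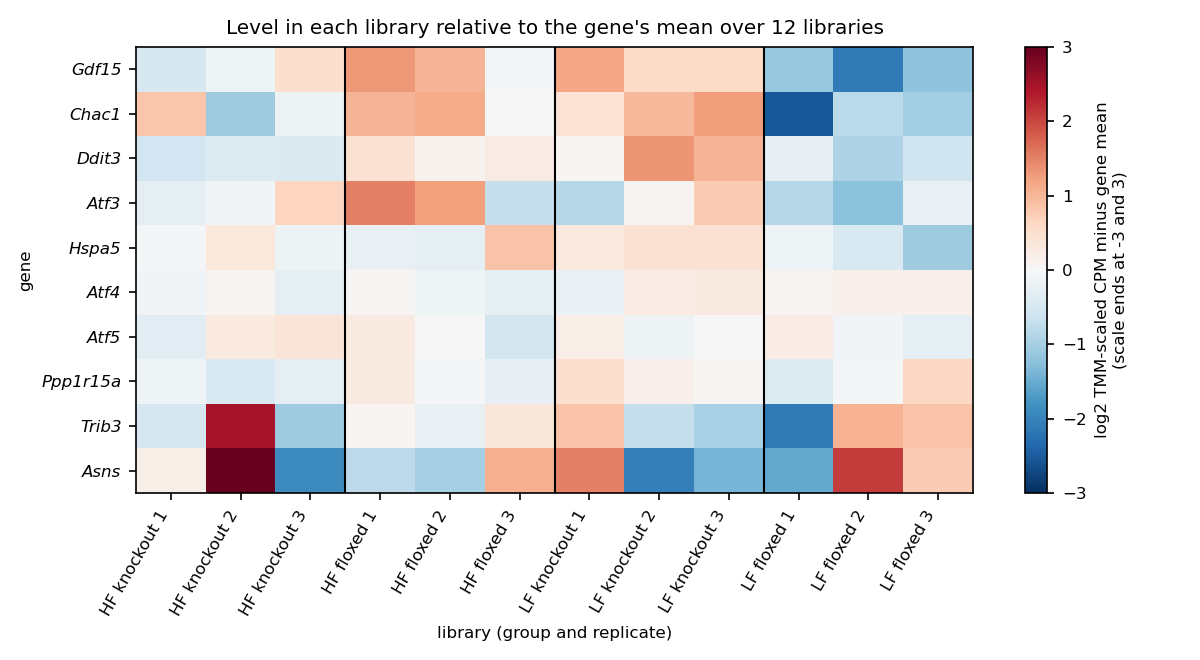
Log2 TMM-scaled CPM of each gene (rows) in each library (columns), relative to the gene's mean over the 12 libraries; red is above and blue below the mean, and the scale ends at -3 and 3. Gdf15 and Chac1 are blue in the 3 LF floxed libraries, and Asns and Trib3 are reddest in HF knockout replicate 2.

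Set side by side, none of the 10 genes passed a false discovery rate of 5% in edgeR in any of the 6 comparisons. In floxed livers, HF against LF, 0 of 10 passed, against 0% of all 12587 genes, and 4 of the 10 had an unadjusted p under 0.05, as did 1532 genes overall. In knockout livers, HF against LF, 0 of 10 passed, against 0% of all genes, with 1 of 10 and 1534 genes at an unadjusted p under 0.05. For knockout against floxed on HF, 0 of 10 passed, against 0% of all genes, with unadjusted p under 0.05 in 2 of 10 and in 963 genes overall. In these 3 comparisons DESeq2, which gave no p-value for Trib3 in any comparison, called 2, 1 and 0 of the other 9 genes, against 2.03%, 1.05% and 0.574% of all genes to which it gave an adjusted p.

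For knockout against floxed on LF, 0 of 10 passed, against 0.0159% of all genes, with 4 of 10 and 646 genes at an unadjusted p under 0.05. For HF against LF averaged over genotypes, 0 of 10 passed, against 0.00794% of all genes, with 1 of 10 and 1918 genes at an unadjusted p under 0.05. For the interaction, 0 of 10 passed, against 0.0159% of all genes, with unadjusted p under 0.05 in 4 of 10 and in 1202 genes overall. Here DESeq2 called 3, 0 and 3 of the 9 genes, against 0.272%, 3.22% and 0.855% of all genes to which it gave an adjusted p, and the called ones were Gdf15, Ddit3 and Chac1 both times.

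**Figure D4:**
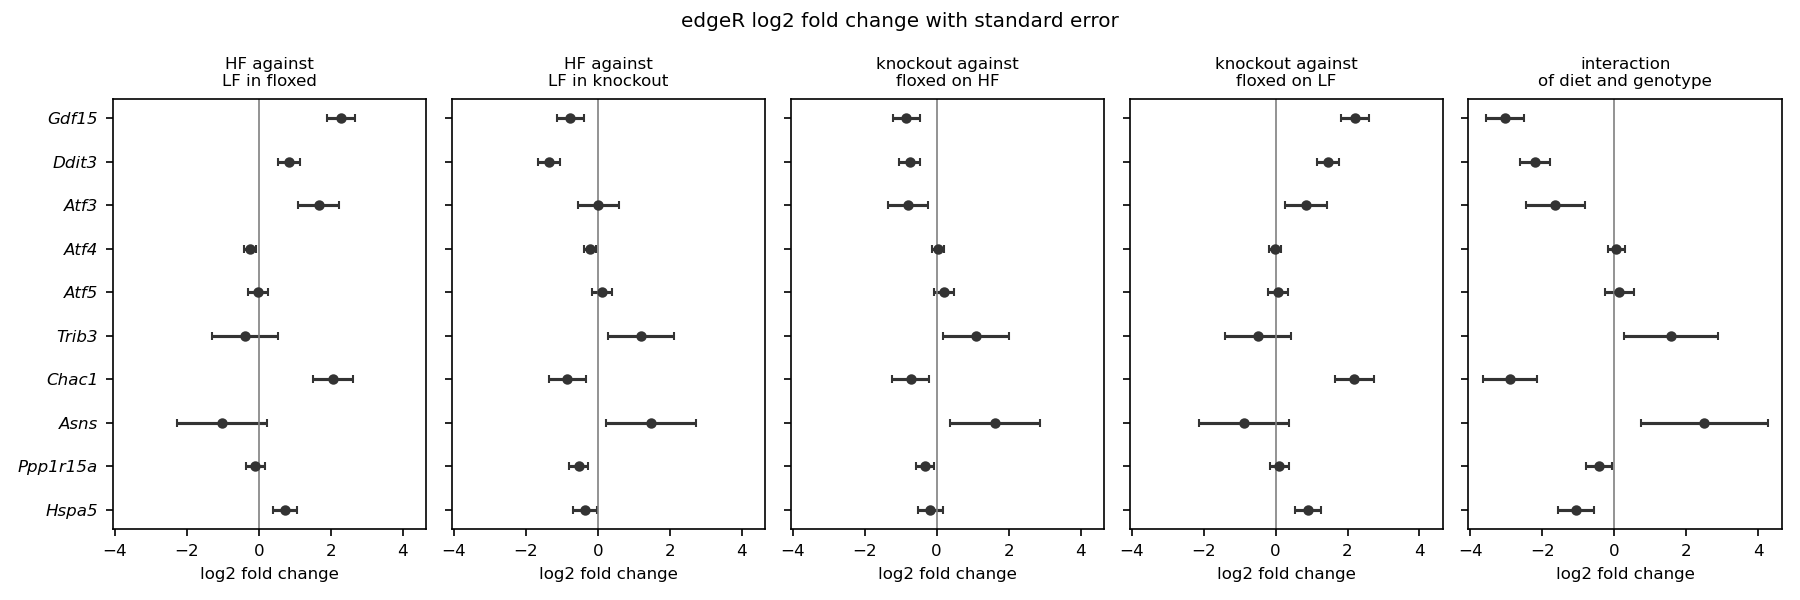
edgeR log2 fold change of each gene (points) with its standard error (bars) in the 4 comparisons of 2 groups and in the interaction, the diet difference in knockout minus that in floxed. Gdf15, Ddit3 and Chac1 lie right of 0 for HF against LF in floxed and for knockout against floxed on LF, and left of 0 in the interaction, at -3.04, -2.21 and -2.91.

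Separation of the libraries gave a second view, on TMM-scaled CPM, counts per library size brought to a common scale by the trimmed mean of the libraries' gene ratios. In FPKM the median gene itself differed by 0.25 (log2) for HF against LF in floxed and by 0.15 for knockout against floxed on LF. Gdf15, Ddit3 and Chac1 were higher in all HF than in all LF floxed libraries, 3 of 10 genes against 11.5% of all genes. In FPKM Hspa5 joined them, 4 of 10 against 23.6% of all genes. Atf4 was lower there, 1 of 10 against 12.5% of all genes, and in FPKM it was not, 0 of 10 against 3.3%. Gdf15, Ddit3, Chac1 and Hspa5 were higher in all LF knockout than in all LF floxed libraries, 4 of 10 genes against 6.53% of all genes, and in FPKM the same 4 stood against 16% of all genes.

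In knockout livers, Gdf15, Ddit3 and Ppp1r15a were lower in all HF than in all LF libraries, 3 of 10 genes against 6.75% of all genes. In FPKM, Gdf15 overlapped there, leaving 2 of 10 against 5.98%, and without HF knockout replicate 2 Hspa5 was lower too, 4 of 10 against 11.1%. Ddit3 was lower in all HF knockout than in all HF floxed libraries, 1 of 10 genes against 5.35%, and without HF knockout replicate 2 Trib3 was too, 2 of 10 against 9.95%. The 4 comparisons share groups in pairs, so the LF floxed libraries, low in Gdf15, Ddit3, Chac1 and Hspa5, enter 2 of them.

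The median log2 difference of the 10 genes was 0.35 for HF against LF in floxed and 0.48 for knockout against floxed on LF, beside 0.00 and -0.02 over all genes. The 11 hepatocyte markers tested had medians of -0.71 and -0.30 in the same comparisons. The 8 liver endothelial cell markers tested had medians of 0.44 and 0.53 there. The median of the 10 genes was -0.28 for HF against LF in knockout and -0.24 for knockout against floxed on HF, beside 0.03 over all genes in both. Within each comparison the 10 genes were of both signs, with 5 positive and 5 negative for HF against LF in floxed and 7 positive and 3 negative for knockout against floxed on LF.

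Among other genes of the pathway, the list of sensors and eIF2 machinery had 18 tested members, and none passed in any comparison. Of these, 10 of 18 were higher for HF against LF in floxed (median log2 0.08). Eif2ak3, the gene of the kinase PERK, was at 7.52, 9.90 and 6.06 FPKM in HF floxed and at 2.92, 3.72 and 4.48 FPKM in LF floxed. Its log2 difference was 1.00 (SE 0.21, edgeR adjusted p = 0.177), and the libraries did not overlap. For knockout against floxed on HF, 14 of 18 members were lower (median -0.11), and Eif2ak3 had a log2 difference of -0.58 (SE 0.21, edgeR adjusted p = 0.6).

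The list of other ATF4 and CHOP targets had 27 tested members, with none passing in any comparison. Its medians were 0.07 for HF against LF in floxed, 0.27 for HF against LF in knockout, 0.15 for knockout against floxed on HF and 0.01 for knockout against floxed on LF. Gpt2, an alanine aminotransferase, was at 150.88, 166.74 and 94.69 FPKM in HF floxed and at 61.59, 51.03 and 49.82 FPKM in LF floxed (log2 1.06, SE 0.25, edgeR adjusted p = 0.203). Vldlr, a lipoprotein receptor, had a log2 difference of 2.12 (SE 0.72, edgeR adjusted p = 0.308) in that comparison and of 1.96 (SE 0.72, edgeR adjusted p = 0.929) for knockout against floxed on LF.

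Psat1, a serine synthesis enzyme, was at 0.14, 17.32 and 0.67 FPKM in HF knockout, at 1.01, 1.04 and 0.34 FPKM in HF floxed and at 0.37, 0.14 and 0.26 FPKM in LF knockout. Its log2 difference of 4.46 for HF against LF in knockout (SE 1.32, edgeR adjusted p = 0.344) came with a single high library, HF knockout replicate 2, which was also highest in Asns and Trib3. Aldh1l2, a mitochondrial folate enzyme, was at 0.02, 2.01 and 0.12 FPKM in HF knockout and at 0.07, 0.09 and 0.04 FPKM in HF floxed. The high value was in the same library, and knockout against floxed on HF gave log2 3.44 (SE 1.18, edgeR adjusted p = 0.598).

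The list of ER chaperones and other ATF6 or XBP1 targets had 26 tested members besides Hspa5. In floxed livers 22 of 26 were higher on HF than on LF, with a median log2 difference of 0.36, and 3 did not overlap, against 11.5% of all genes. Their summed level was 2355, 2415 and 3236 FPKM in HF floxed replicates 1, 2 and 3, and 1670 to 1983 FPKM in LF floxed. For knockout against floxed on LF, 23 of 26 were higher, with a median of 0.37, and 9 did not overlap, against 6.53% of all genes. In knockout livers 11 were higher and 15 lower on HF (median -0.03). On HF, 15 were higher and 11 lower in knockout than in floxed livers (median 0.05), while Hspa5 was at -0.17, and none of the 26 passed in any comparison.

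Creld2, an ER stress-induced secreted protein, was at 57.00, 39.19 and 34.89 FPKM in LF knockout and at 18.22, 16.54 and 11.29 FPKM in LF floxed (log2 1.34, SE 0.46, edgeR adjusted p = 0.929). Pdia4, a disulfide isomerase, was at 86.39, 104.59 and 99.75 FPKM in LF knockout and at 63.67, 49.55 and 31.99 FPKM in LF floxed (log2 0.82, SE 0.30, edgeR adjusted p = 0.929). Both genes, like Hspa5, were higher in each LF knockout library than in each LF floxed one.

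**Figure D5:**
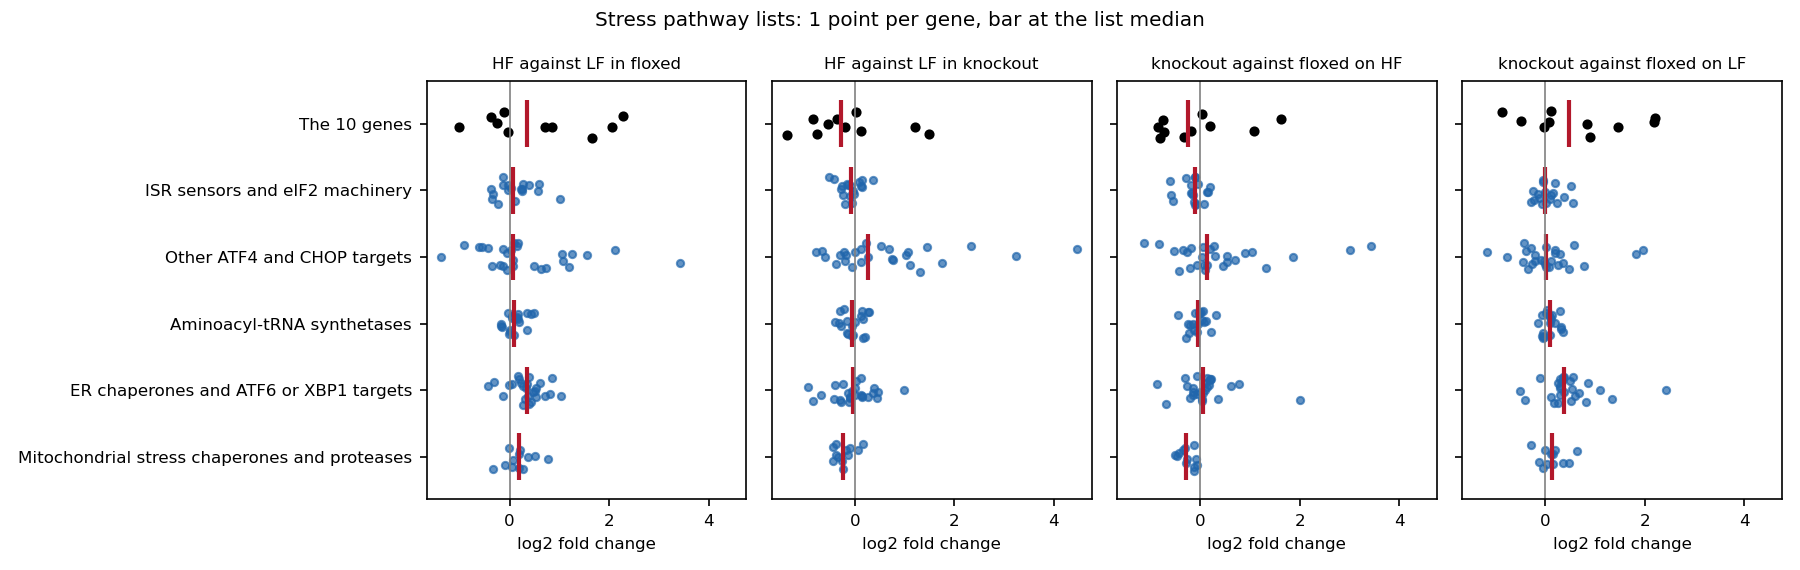
edgeR log2 fold changes of the 10 genes (black) and of 5 lists of stress pathway genes (blue), 1 point per gene with a bar at the median, in the 4 comparisons of 2 groups. Medians of the ER chaperone list are 0.36 for HF against LF in floxed and 0.37 for knockout against floxed on LF.

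Mitochondrial stress chaperones and proteases, 12 tested, are genes whose loss of balance is also known to engage ATF4 and ATF5. For knockout against floxed on HF all 12 had negative log2 differences, with a median of -0.27 against 0.03 over all genes, and none passed. Trap1, a mitochondrial chaperone, had a log2 difference of -0.47 (SE 0.20, edgeR adjusted p = 0.625), and Spg7, a protease subunit, of -0.43 (SE 0.16, edgeR adjusted p = 0.607). In floxed livers 9 of 12 were higher on HF than on LF, with a median of 0.19.

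Over the 12 libraries, the genes whose FPKM followed Gdf15 most closely were Gpat3, a glycerol-3-phosphate acyltransferase (Pearson r 0.941), Galnt2, a glycosyltransferase (0.918), Eif3b, an initiation factor subunit (0.914), Dglucy, a D-glutamate cyclase (0.904), and Snx3, a sorting nexin (0.904). They were the first 5 of 10010 protein-coding genes, and these values share libraries and the scaling of FPKM. On TMM-scaled CPM, Gpat3, Galnt2 and Dglucy ranked 1, 2 and 3 of 9996 genes, and Eif3b and Snx3 ranked 3376 and 1053. Gpat3 was at 1.24, 1.98 and 3.78 FPKM in HF knockout, at 4.98, 4.89 and 2.00 FPKM in HF floxed, at 2.60, 3.44 and 4.20 FPKM in LF knockout and at 0.63, 0.75 and 1.08 FPKM in LF floxed. Within the set, Chac1 (r 0.781), Atf3 (0.746) and Ddit3 (0.725) were nearest to Gdf15, Atf4 was at 0.249, and Trib3 and Asns were at -0.043 and -0.298. Chac1, Atf3 and Ddit3 ranked 228, 408 and 566 of the 10010 genes, and 79, 141 and 266 of 9996 on TMM-scaled CPM.

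Markers of other cells moved over the same groups. Whole liver was measured, so fewer cells of a type and less RNA per cell cannot be told apart. Hepatocyte markers, of which 11 were tested, were present in every library. They were lower in 10 of 11 for HF against LF in floxed (median log2 -0.71), 6 of them with no overlap against 12.5% of all genes, and in 9 of 11 for knockout against floxed on LF (median -0.30). Their summed level was 47006 to 108908 FPKM in HF knockout, 41372 to 42819 FPKM in HF floxed, 49091 to 65632 FPKM in LF knockout and 52789 to 72675 FPKM in LF floxed. In 7 of 11 they were higher for HF against LF in knockout (median 0.01) and for knockout against floxed on HF (median 0.18). Of 10 stellate cell markers, all 10 were higher for HF against LF in floxed (median log2 1.17), and their summed level was 110 to 213 FPKM in HF floxed and 59.3 to 104 FPKM in LF floxed. For knockout against floxed on HF, 8 of 10 were lower, with sums of 40.9 to 144 FPKM in HF knockout.

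Of 12 macrophage markers, all 12 were higher for HF against LF in knockout (median log2 1.32) and 10 were higher for knockout against floxed on HF (median 0.66). In floxed livers 7 were higher on HF than on LF (median 0.67), and on LF 4 were higher in knockout than in floxed livers (median -0.10). None of the 12 passed in any comparison. Their summed level was 72.0 to 342 FPKM in HF knockout, 75.2 to 151 FPKM in HF floxed, 57.2 to 101 FPKM in LF knockout and 47.1 to 140 FPKM in LF floxed. Of 10 neutrophil markers 6 were tested, and their list summed to 538 FPKM in HF knockout replicate 3, to 5.07 FPKM in HF knockout replicate 2 and to 2.04 to 11.9 FPKM in the other groups. Camp, a neutrophil granule gene, was at 0 in 9 libraries. The part of other cells in the values of the 10 genes was not tested.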

How the data were processed

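Total RNA of frozen liver was sequenced by BGI, per the labels' protocols, and the submitters' processing notes name genome build mm9. Which aligner, counter and annotation were used is not given in the sources used here. Every deposited file holds estimated counts, in the column layout of RSEM per the file headers, and FPKM computed by the authors. Files list 14527 to 15329 genes and none under 0.01 FPKM, so a gene absent from a file was taken as 0 there. Loci without a gene name (1229, with 6.65 to 17.33% of the counts) were left out.

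For testing, counts were rounded and fitted by edgeR 4.0.16 (R 4.3.3) with TMM scaling, filterByExpr, 1 mean per group over 12 libraries and quasi-likelihood tests, with Benjamini-Hochberg adjustment over 12587 genes at a false discovery rate of 5%. The 6 comparisons were HF against LF within each genotype and averaged over genotypes, knockout against floxed on each diet, and the interaction. Exact permutation tests used log2(FPKM + 1). The biological coefficient of variation was 34.8%. Named genes took 13336969 to 15080378 counts per library, and the lowest count of the 10 genes was 5, for Asns.

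The 10 genes and the 14 gene lists were chosen with earlier results of these data known. Named from each list in each comparison were called genes, otherwise at most the 2 of smallest unadjusted p. As most like Gdf15, the 5 protein-coding genes of at least 1 FPKM on average with the highest Pearson r were named. Dbp, Camp and the choice of printed promoters were settled after values were seen. Promoters came from RefSeq tables of GRCm38.p6, another build than that of the files, whose positions are therefore not printed.

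Alternatives were DESeq2 1.42.0, its size factors in edgeR, other filters, limma 3.58.1 on FPKM (log2, pseudocount 1 or 0.1, a minimum of 1 FPKM in 3 libraries or no filter), a fit of the compared groups, a replicate block, each library left out, near-identical libraries averaged and unnamed loci kept. Chosen after seeing the data were the overlap of libraries on FPKM, with close pairs averaged and without HF knockout replicate 2, and ranks of likeness on TMM-scaled counts. The pipeline was tested on simulated data.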

Additional observations from a re-analysis of the deposited data

Results flagged for a closer look

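Gdf15 moved in opposite directions with diet in the 2 genotypes: the 3 HF libraries exceeded each LF library in floxed livers (log2 2.28), and lay below each in knockout livers (log2 -0.76) on TMM-scaled counts. The difference between these diet effects was -3.04 (SE 0.54), which missed the threshold in edgeR (adjusted p = 0.241), while DESeq2 called it (adjusted p = 0.000157).

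Ddit3 also moved in opposite directions with diet, at 0.84 in floxed and -1.36 in knockout livers. Libraries of the diets were apart in each, against the same 11.5% and 6.75% of all genes. The difference was -2.21 (SE 0.42, edgeR adjusted p = 0.251, DESeq2 adjusted p = 0.00194). The same value, -2.21, is the genotype difference of Ddit3 on HF (-0.75) minus that on LF (1.46), with libraries of the genotypes apart on each diet. Of all genes, 5.35% were lower in all knockout libraries on HF and 6.53% higher on LF, and how many did both was not counted. HF floxed replicates 1 and 2 and LF knockout replicates 2 and 3, the close pairs, enter all of these values. With each pair averaged, the differences were -2.96 for Gdf15 and -2.03 for Ddit3 (edgeR adjusted p = 0.996 for both).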

How the results depend on the processing

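Of the 10 genes, all but Trib3 had a p-value in DESeq2, which called 2 for HF against LF in floxed, 1 for HF against LF in knockout, 0 for knockout against floxed on HF, 3 for knockout against floxed on LF, 0 for the averaged diet effect and 3 for the interaction. Leaving out 1 library called 0 to 1 in the first, 0 to 1 in the genotype comparison on LF and 0 to 1 in the interaction, and 0 elsewhere. No other alternative called any of them. Over all genes, with 0, 0, 0, 2, 1 and 2 calls in the order above, DESeq2 made 254, 126, 69, 34, 403 and 107 calls. A fit of the compared groups made 82, 0, 0 and 11. With 1 library left out, calls ran from 0 to 14, 0 to 10, 0 to 14, 0 to 13, 0 to 7 and 1 to 17. No filter gave 1 call in floxed livers, and unnamed loci kept gave 3 there, 2 for the averaged diet effect and 1 for the interaction. With log2(FPKM + 0.1) there was 1 call in floxed livers and 1 between genotypes on LF, and with log2(FPKM + 1) 0 on LF. With log2(FPKM + 1) and no filter there were 1, 0 and 2 calls between genotypes on HF, between genotypes on LF and for the averaged diet effect. Averaging the close pairs gave 0 calls in every comparison.

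The replicate block gave 0, 0 and 1 calls between genotypes on LF, for the averaged diet effect and for the interaction, and 0 of the 10 genes. Deviations of libraries with the same number correlated at -0.331 to 0.404. Between libraries of other groups with different numbers they correlated at -0.551 to 0.55. These values did not set libraries of the same number apart, and a pairing was not tested.

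On FPKM, 0 of the 10 genes was lower in all HF floxed libraries, in place of 1, and 4 were higher there, in place of 3. The number lower in all HF knockout than in all LF knockout libraries was 2 on FPKM and 4 without HF knockout replicate 2, in place of 3. Without HF knockout replicate 2, the number lower in HF knockout than in HF floxed was 2, in place of 1. Signs turned for Asns and Trib3, the genes of the widest ranges, and otherwise only for values near 0. With log2(FPKM + 1) and the filter, the median of all genes was 0.197 for HF against LF in floxed, beside -0.001 in edgeR. It was -0.106 between genotypes on HF, 0.121 on LF and -0.229 in the interaction, beside 0.028, -0.019 and 0.047 in edgeR. The cause of the turned signs was not tested. With log2(FPKM + 1), with and without the filter, Atf4 was at -0.07 between genotypes on HF, 0.13 between genotypes on LF and -0.20 in the interaction, Atf5 at 0.22 in floxed livers and -0.16 in the interaction, and these values were the same with log2(FPKM + 0.1). For HF against LF in floxed, Trib3 was at 0.12 and 0.34 and Ppp1r15a at 0.16 and 0.20 with the larger and the smaller pseudocount. With DESeq2 and with its size factors Atf4 was at 0.00 between genotypes on LF, and with close pairs averaged Atf5 was at -0.03 for the averaged diet effect.

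With 1 library left out, in floxed livers Asns ran from -1.96 to 0.03, Trib3 from -0.88 to 0.03, Atf5 from -0.22 to 0.17 and Ppp1r15a from -0.31 to 0.21. In knockout livers Asns ran from -0.75 to 3.35, Trib3 from -0.72 to 2.00, Atf3 from -0.31 to 0.47 and Atf5 from -0.02 to 0.30. Between genotypes on HF, Asns ran from -0.61 to 2.56, Trib3 from -0.83 to 1.57, Atf4 from -0.06 to 0.12 and Hspa5 from -0.37 to 0.29. Between genotypes on LF, Asns ran from -2.73 to 0.17, Atf4 from -0.10 to 0.13, Atf5 from -0.02 to 0.22 and Ppp1r15a from -0.09 to 0.45. For the averaged diet effect, Asns ran from -0.88 to 1.16, Trib3 from -0.55 to 0.80, Atf5 from -0.05 to 0.14 and Hspa5 from -0.05 to 0.30. In the interaction, Trib3 ran from -0.34 to 2.40, Atf4 from -0.08 to 0.14 and Atf5 from -0.06 to 0.34. Gdf15, Ddit3 and Chac1 kept their sign under every alternative run.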

Other observations

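Aminoacyl-tRNA synthetases, which load amino acids onto tRNAs and include ATF4 targets, stood close to the median gene. Of 19 tested, 14 were higher for HF against LF in floxed (median log2 0.08) and 13 were higher for knockout against floxed on LF (median 0.09), and none passed in any of the 6 comparisons. Lars, the leucyl-tRNA synthetase, had a log2 difference of 0.43 for HF against LF in floxed (SE 0.13, edgeR adjusted p = 0.284). The summed level of the list was 288 to 360 FPKM in HF knockout, 363 to 385 FPKM in HF floxed, 341 to 372 FPKM in LF knockout and 269 to 311 FPKM in LF floxed.

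Immediate early genes, the class to which Atf3 also belongs, were not on 1 side in every comparison. Jun, a partner of ATF3 in dimers, was at 22.05, 22.81 and 7.85 FPKM in HF floxed and at 5.84, 2.74 and 3.54 FPKM in LF floxed (log2 1.80, SE 0.44, edgeR adjusted p = 0.215). It was at 8.27, 16.45 and 17.62 FPKM in LF knockout, and the log2 difference from LF floxed was 1.60 (SE 0.43, edgeR adjusted p = 0.892). Egr1, an early growth response factor, had a log2 difference of 3.23 for HF against LF in knockout (SE 0.70, edgeR adjusted p = 0.344). Of the 14 tested members of this list, none passed in any of the 6 comparisons.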
